A study of Gallus gallus with 12 samples.

Results

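The heat shock proteins and protein folding chaperones of the chicken were taken as every row whose gene symbol begins with HSPA, HSPB, HSPD, HSPE, HSPH or HSP9, with DNAJA, DNAJB or DNAJC and a number, or with PDIA or CCT and a number. This gave 77 rows of 18332 genes, under 76 symbols, since DNAJC5B was listed in 2 rows. By textbook location, 46 members work in the cytosol or nucleus, 16 in the endoplasmic reticulum (ER) and 8 in the mitochondrion, and 7 were not assigned to a compartment. By family, they were 11 HSP70 genes (HSPA and HSPH1), 3 HSP90 genes, 6 small heat shock proteins, the 2 chaperonin genes HSPD1 and HSPE1, 2 genes for proteins that bind heat shock proteins (HSPBP1 and HSPBAP1), 42 DNAJ genes (4 DNAJA, 11 DNAJB and 27 DNAJC), 4 protein disulfide isomerases (PDIA) and 7 subunits of the chaperonin CCT. A few members fold no protein as their known role: DNAJC6 (auxilin) strips clathrin from vesicles, and HSPB11 is an intraflagellar transport protein in mammals. Genes of these families that the files list under other symbols, such as HSP25, TCP1 (a CCT subunit) and P4HB (a disulfide isomerase), were not members.

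HSP70 proteins bind unfolded stretches of a client in a cycle driven by ATP, J-domain proteins of the DNAJ families deliver the clients and start the cycle, and HSP90 takes over later steps with its own cochaperones. Each compartment has its own set: HSPA8 and HSP90AA1 in the cytosol, HSPA5 (BiP) and HSP90B1 (GRP94) with the disulfide isomerases in the ER, and HSPA9 with the HSPD1 and HSPE1 chaperonin in the mitochondrion. The liver secretes most plasma proteins through its ER, and fat cells secrete matrix proteins and adipokines.

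Livers and abdominal fats came from Xinghua broilers with the dw gene, a mutation in the growth hormone receptor gene that every bird carried, and the methods describe all birds as females. The birds received a high-fat diet (HFD, 25% fat) or a normal diet (ND, 5% fat) for 2 weeks before slaughter. The labels give their age as 8 weeks, which by the methods was the age at the start of the diets. Per the methods both tissues came from the same birds, 3 per diet, which gave 12 samples in 4 groups of 3. Whether a replicate number marks the same bird in both tissues is not stated, so the fits that joined the tissues took the 12 samples as independent. The 3 sequenced HFD birds were those with the higher, and the 3 ND birds those with the lower, abdominal fat rate of the 6 birds on each diet, so the diet groups also differed by this selection and the 2 cannot be told apart. The values are FPKM, fragments counted per kilobase of a transcript and relative to all mapped fragments of the library, which allows levels of different genes to be compared per length. The FPKM of all genes summed to 459367 to 499661 in fat and 564751 to 618324 in liver, and the depth of the libraries is unknown beyond a relative depth of 0.93 to 1.05 estimated from the smallest steps of 21 low genes.

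The tissue labels were borne out by their defining genes. The 9 adipocyte markers summed to 13190 to 16094 FPKM in fat and 946 to 1135 in liver, and the 13 hepatocyte markers to 119072 to 140888 in liver and 683 to 6103 in fat. The adipocyte sum hides PCK2, which was higher in liver by 4.71 on the log2 scale, whereas the other adipocyte markers were lower there. Single libraries stood apart. The fat library of ND replicate 2 held 2887 FPKM of ALB against 0.86 to 70.0 in the other 5 fat libraries, that of HFD replicate 1 held 67.25 FPKM of the muscle gene MYL1 against at most 0.49, and the liver library of HFD replicate 3 was the highest liver sample for 42 of the 74 members tested (56.8%), against 24.9% of all genes tested. In pieces of tissue, fewer cells of a type and less RNA per cell cannot be told apart.

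The chaperones took a larger share of all FPKM in fat than in liver, as did most genes. The 10 highest genes of a sample held 25.6% to 30.1% of all FPKM in liver and 9.3% to 9.9% in fat. With FPKM rescaled to a common total, 10792 of 15447 genes were lower in liver at an adjusted p of at most 0.05, beside 56 of 74 members. The 77 members together made up 0.853% to 1.17% of all FPKM in the 6 fat samples and 0.296% to 0.644% in the 6 liver samples, and the ranges did not overlap. The mitochondrial members alone did overlap, with 0.0604% to 0.0873% in fat and 0.0577% to 0.107% in liver. The members not assigned to a compartment had the larger share in liver, 0.0163% to 0.0209% against 0.0082% to 0.0097% in fat. In fat, 3 cytosolic genes carried 58.7% of the cytosolic FPKM. They were HSP90AA1, the cytosolic HSP90 (lowest 506, median 610, highest 898 FPKM), HSPA2, a cytosolic HSP70 (455, 552 and 1214), and HSPA8, the constitutive HSP70 (404, 513 and 796). The ranges of these 3 genes overlapped, so their order in fat was not set apart by the spread between birds. The next cytosolic members, DNAJA1 and DNAJB2, both J-domain partners of HSP70, lay between 74.1 and 143 FPKM in fat, below every value of those 3.

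In the ER, HSP90B1, HSPA5 and PDIA3, a disulfide isomerase that works on glycoproteins, lay between 177 and 313 FPKM in every fat sample and made up 61.2% of the ER members' FPKM there. In liver their order was another one: PDIA3 had 153 to 238 FPKM, whereas HSP90B1 had 42.0 to 209 and HSPA5 40.4 to 350.0. Among mitochondrial members, HSPE1 and HSPD1, the small and large subunit of the mitochondrial chaperonin, made up 63.3% of the class in fat and 66.2% in liver. They are neighbouring genes on the RefSeq assembly GRCg7b, and HSPE1 stood at 123 to 211 FPKM for each 100 FPKM of HSPD1 in the 12 samples. HSP90AB1, the other cytosolic HSP90, was low in every sample, with 7.44 to 9.24 FPKM in fat and 2.62 to 4.93 in liver, or 0.8 to 5.5 FPKM for each 100 of HSP90AA1. HSP90AA1 and HSP90AB1 are close paralogs, as are HSPA2 and HSPA8, so how reads were shared between them is uncertain. DNAJB8 was listed at 0 in all 12 samples.

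**Figure D1:**
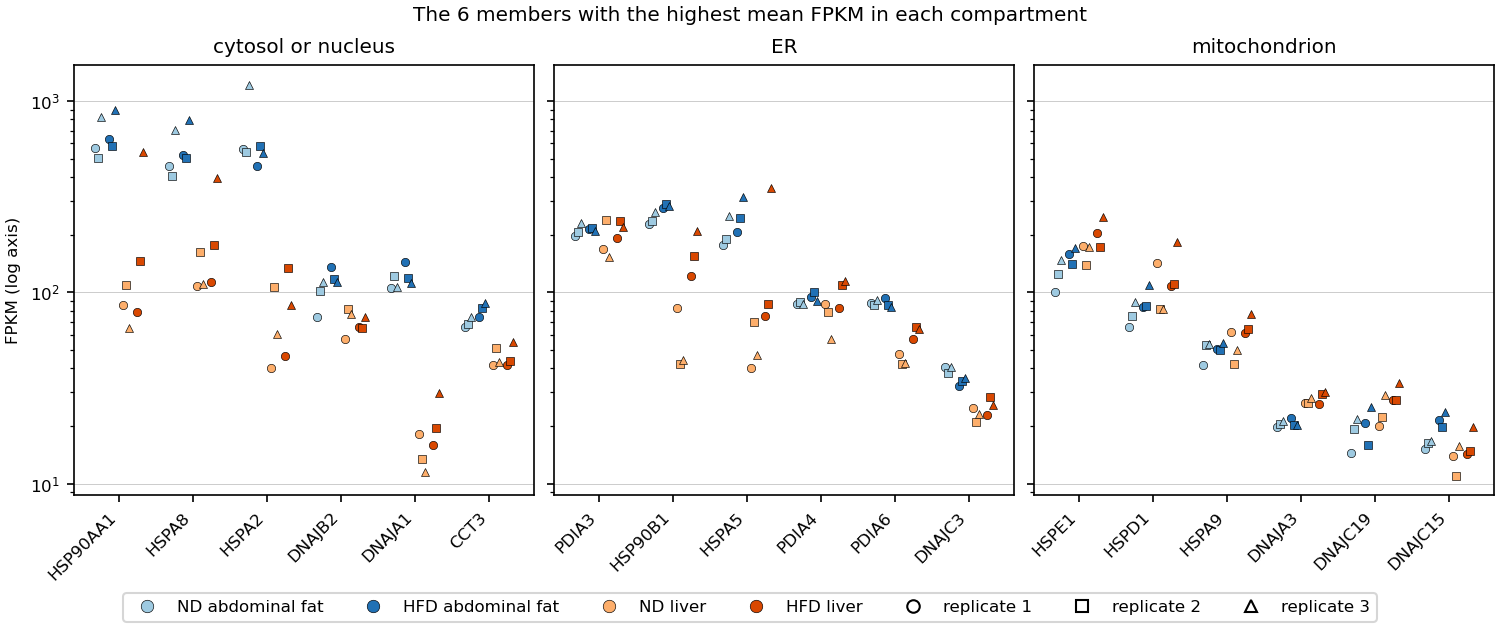
FPKM (log axis) of the 6 members with the highest mean over the 12 samples in each compartment, one point per sample, coloured by tissue and diet and shaped by replicate number. HSP90AA1, HSPA8, HSPA2 and DNAJA1 lay lower in liver than in fat, whereas PDIA3, PDIA4 and the mitochondrial members differed less between the tissues, and the triangle of HFD liver is highest in liver for HSP90AA1 (543 FPKM), HSPA8 (393) and HSPA5 (350.0).

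To compare the tissues, log2(FPKM + 1) of the 6 liver samples was set against that of the 6 fat samples in one limma fit of all 4 groups, averaged over the diets. Of the 74 members with a mean of at least 0.1 FPKM, 12 were higher and 50 were lower in liver at an adjusted p of at most 0.05, and 12 passed in neither direction. Among all 15447 genes tested, 16.4% were higher and 62.4% lower, so the counts of members lay near those of all genes. The median difference of the members was -0.69 on the log2 scale, beside -0.52 for all genes. The direction of this background depends on the scaling. With FPKM rescaled to a common total (TPM) the median of all genes was -0.83. There, 6 members were called higher and 56 lower, beside 2025 and 10792 of the 15447 genes. With quantile normalization the median was -0.01, and 23 members were higher and 33 lower, beside 5377 and 5674 genes. In all 3 scalings, 6 members were called higher and 33 lower, a count that was not made for all genes. Members named below whose call was lost in one scaling are pointed out. Without overlap between the tissues there were 8 members higher and 39 lower in liver, beside 11.4% and 50.3% of all genes.

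The cytosolic chaperones were lower in liver for the most part: 36 of 43 tested were lower and 4 were higher, beside 62.4% and 16.4% of all genes. The median was -0.93, beside -0.52 for all genes. Those lower in all 3 scalings numbered 24. The 2 largest negative differences on the log2(FPKM + 1) scale were those of HSPB8 and HSPB1. Both are small heat shock proteins, which hold unfolding clients without ATP. HSPB8, which acts with BAG3 in the autophagy of damaged proteins, had 54.3, 48.3 and 54.9 FPKM in HFD fat and 33.9, 27.9 and 38.4 in ND fat, against 1.01, 1.98 and 1.26 in HFD liver and 2.40, 1.90 and 2.18 in ND liver. The lowest fat sample, at 27.9 FPKM, lay above the highest liver sample, at 2.40, and the difference was -3.96 on the log2(FPKM + 1) scale (SE 0.11, limma adjusted p = 1.285e-10). HSPB1 ranged from 64.7 to 149.98 FPKM in fat and from 4.52 to 7.73 in liver (log2 difference -3.80, SE 0.17, adjusted p = 2.966e-09). The other 3 genes tested that are named as small heat shock genes were called lower by less. HSPB7 differed by -1.46, HSPB2 by -0.41 and HSPB11, the intraflagellar transport protein not assigned to a compartment, by -1.03. All 3 calls were lost with quantile normalization. The sixth, HSPB3, was at most 0.20 FPKM in any sample.

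HSPA2 had a lowest value of 455, a median of 552 and a highest of 1214 FPKM in fat, against 40.2, 73.2 and 134 in liver (log2 difference -3.07, SE 0.31, adjusted p = 2.733e-06). DNAJA1 had 105 to 143 FPKM in fat and 11.4 to 29.7 in liver (-2.70, SE 0.15, adjusted p = 2.036e-08). The tissues did not overlap for either gene. HSP90AA1 was lower in liver as well (-2.38, SE 0.39, adjusted p = 0.0001443), but 1 liver sample, HFD replicate 3 at 543 FPKM, reached into its fat range of 506 to 898. HSPA12A, a distant HSP70 relative, had 5.95 to 10.4 FPKM in fat and 0.20 to 0.45 in liver (-2.73, SE 0.09, adjusted p = 3.939e-10). The log2(FPKM + 1) scale understates its change, since its mean in fat was 24.9 times that in liver, beside 24.0 times for HSPB8. Among the HSP70 genes as a family, 9 of 11 were lower, HSPA13 and HSPA14 not with quantile normalization, and 1, HSPA12B, was higher in liver (0.55, SE 0.21, adjusted p = 0.03092), a call lost with TPM scaling and in 7 of the 12 fits that left out 1 library. All 3 HSP90 genes were lower in liver in all scalings. These family counts are read beside the 62.4% of all genes that were lower and the 16.4% that were higher on the FPKM scale.

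The 7 CCT members are subunits of the ring that folds actin and tubulin. All 7 were lower in liver, and none overlapped between the tissues. Among all genes, 62.4% were lower in liver and 50.3% were lower without overlap, and these shares were not tested against each other. Their log2 differences ran from -0.41 for CCT7 to -1.29 for CCT5, a narrow band compared with the HSP70 genes, which ran from -3.07 to 0.55. In fat the subunits lay between 38.1 and 87.6 FPKM and in liver between 18.1 and 55.02. CCT6A and CCT7, the members of the 7 with the 2 smallest differences, were not called lower with quantile normalization. TCP1, a further subunit of the ring under another symbol, was not a member. On the FPKM scale it gave -0.32 (SE 0.11, limma adjusted p = 0.02118), with an overlap between the tissues.

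The ER chaperones were uneven. Of 16 tested, 11 were lower in liver and 1 was higher, beside 62.4% and 16.4% of all genes. These counts lie near those shares and are no result about the class. The median was -0.76, beside -0.52 for all genes. HSP90B1 (gene ID 374163), which folds secreted and membrane proteins, had 275, 291 and 283 FPKM in HFD fat and 227, 236 and 261 in ND fat, against 122, 154 and 209 in HFD liver and 82.8, 42.0 and 44.4 in ND liver. The difference averaged over the diets was -1.49 (SE 0.17, adjusted p = 9.808e-06). HSPA5 (gene ID 396487) differed by -1.45 (SE 0.34, adjusted p = 0.001996), and here the liver library of HFD replicate 3, at 350.0 FPKM, was above all fat samples. The J-domain partners of HSPA5, DNAJB9, DNAJB11, DNAJC1, DNAJC3 and DNAJC10, were all lower in liver, from -0.59 to -1.53, DNAJB9 and DNAJC3 not in every scaling. Of the other ER J-domain genes, DNAJC18 (-1.88) and DNAJB14 (-1.46) were lower as well, whereas DNAJB12 (-0.07, adjusted p = 0.4209) and DNAJC16 (0.18, adjusted p = 0.08202) missed the threshold on the FPKM scale and were both called higher with quantile normalization, DNAJB12 also lower with TPM scaling.

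Of the 4 PDIA members, disulfide isomerases that form and rearrange disulfide bonds, 1 was lower in liver, 1 was higher and 2 were not called. Among all genes, 62.4% were lower and 16.4% higher. PDIA3 had a mean of 212 ± 11.2 FPKM in fat and 201 ± 35.7 in liver (SD, n = 6), and its difference of -0.10 (SE 0.11) missed the threshold. PDIA4 gave -0.09 (SE 0.11) with means of 91.4 ± 5.45 and 88.0 ± 21.0 FPKM. Both were called lower in liver with TPM scaling. PDIA6 was lower in liver (-0.73, SE 0.07, adjusted p = 1.156e-06), and PDIA5 was higher, with 31.4 to 38.8 FPKM in liver against 13.0 to 19.5 in fat (1.08, SE 0.09, adjusted p = 6.543e-07). P4HB, a further disulfide isomerase under another symbol, was not a member. On the FPKM scale it was higher in liver (0.94, SE 0.12, limma adjusted p = 1.801e-05), without overlap between the tissues.

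The 8 mitochondrial members had a median difference of 0.40, the only compartment with a positive one. Their calls are read beside the 16.4% of all genes that were higher and the 62.4% that were lower. HSPE1, HSPD1, DNAJA3 (a J-domain partner of HSPA9), DNAJC19 (part of the import motor of the inner membrane) and DNAJC30 were called higher in liver by 0.39 to 0.48, DNAJC15, a relative of DNAJC19, was called lower (-0.32, SE 0.11), and HSPA9 (0.21) and DNAJC11 (-0.06) missed the threshold. None of these 6 calls held in all scalings: with TPM none of the 8 was higher and 2 were lower, and with quantile normalization all 8 were higher. HSPD1 had 83.4, 85.0 and 109 FPKM in HFD fat and 65.7, 75.4 and 89.0 in ND fat, against 108, 111 and 183 in HFD liver and 142, 81.6 and 81.8 in ND liver, so the tissues overlapped.

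**Figure D2:**
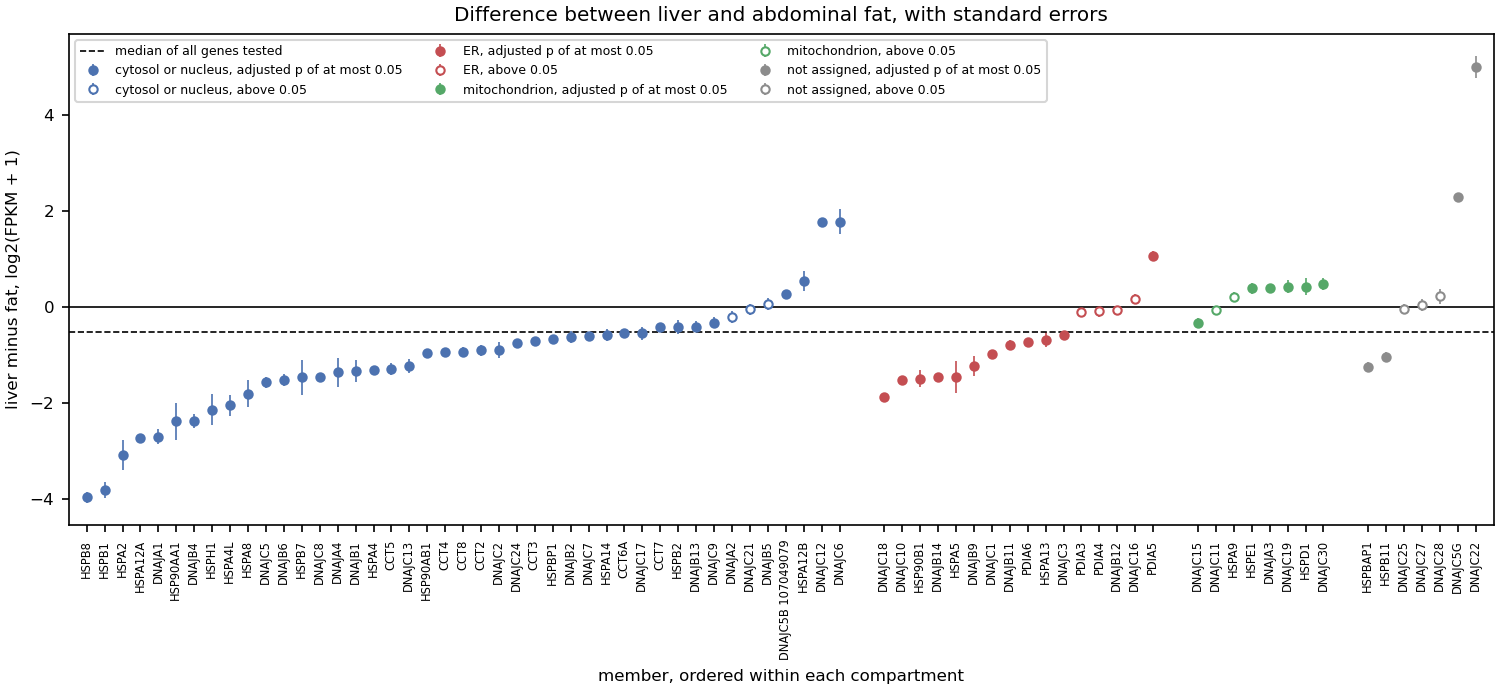
Difference between liver and abdominal fat on the log2(FPKM + 1) scale for the 74 members tested, with standard errors, ordered within each compartment. Filled points have an adjusted p of at most 0.05, and the dashed line marks the median of all genes, -0.52: the cytosolic members reach down to -3.96, whereas all 8 mitochondrial members lie between -0.32 and 0.48.

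Ratios within a sample do not depend on how its total was scaled. For each 100 FPKM of cytosolic members, the ER members had 28.6 to 40.7 FPKM in the fat samples (mean 36.6 ± 4.7, SD, n = 6) and 61.1 to 83.1 in the liver samples (70.0 ± 8.5). The mitochondrial members had 8.9 to 12.6 FPKM in fat (11.3 ± 1.5) and 33.8 to 57.5 in liver (45.8 ± 10.2). For each 100 FPKM of ER members, the mitochondrial members had 26.5 to 33.9 in fat and 53.5 to 82.7 in liver. None of the 3 ratios overlapped between the tissues, on either diet. The same was seen for the HSP70 pair of 2 compartments: HSPA9 stood at 6.8 to 13.1 FPKM for each 100 of HSPA8 in fat and at 19.6 to 57.8 in liver. HSPA5 for each 100 of HSPA8 overlapped, with 35.3 to 48.7 in fat and 37.7 to 89.0 in liver. So did HSP90B1 for each 100 of HSP90AA1, with 31.5 to 49.8 in fat and 38.6 to 154 in liver. The ratios to the cytosolic sum rest largely on HSP90AA1, HSPA2 and HSPA8, which carried 58.7% of that sum in fat and 40.6% in liver.

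**Figure D3:**
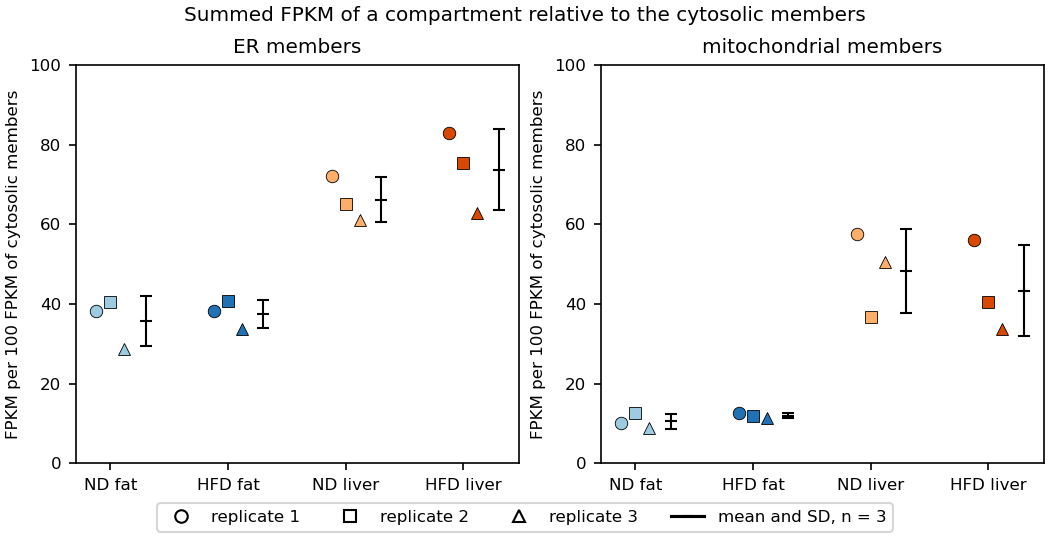
Summed FPKM of the 16 ER members and of the 8 mitochondrial members for each 100 FPKM of the 46 cytosolic members, one point per sample, with the mean and SD of each group of 3. All 6 liver samples lie above all 6 fat samples in both panels, at 61.1 to 83.1 against 28.6 to 40.7 for the ER and 33.8 to 57.5 against 8.9 to 12.6 for the mitochondrion. HSP90AA1, HSPA2 and HSPA8 carry 58.7% of the cytosolic sum in fat and 40.6% in liver.

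The 4 largest positive differences were those of J-domain genes, of which DNAJC22 was listed at or near 0 in most fat samples. DNAJC22, whose fly counterpart acts in endocytosis, had 32.3, 33.5 and 37.5 FPKM in HFD liver and 36.8, 46.9 and 41.3 in ND liver. In fat it was listed at 0 in 4 samples, at 0.10 in HFD fat 1 and at 1.87 in ND fat 2, the library with the high ALB. The difference was 5.0 on the log2(FPKM + 1) scale (SE 0.23, adjusted p = 3.701e-09). DNAJC5G, a relative of the cysteine string protein, had 7.25 to 8.89 FPKM in fat and 31.1 to 51.7 in liver (2.29, SE 0.09, adjusted p = 9.695e-10). DNAJC12, a partner of the aromatic amino acid hydroxylases in humans, had 10.2 to 13.8 and 36.8 to 48.0 (1.77, SE 0.08, adjusted p = 3.772e-09). DNAJC6 had 0.21 to 0.31 FPKM in fat and 4.92, 5.17 and 4.82 in HFD liver and 2.80, 0.44 and 4.66 in ND liver (1.78, SE 0.26, adjusted p = 5.795e-05). These 4 genes did not overlap between the tissues in any sample.

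The tissue comparison within each diet gave similar counts, 7 members higher and 46 lower in ND liver than in ND fat, and 10 higher and 44 lower in HFD liver than in HFD fat. The shares of all genes were 13.7% and 57.9% (71.6% in either direction) on ND, and 14.6% and 53.9% (68.5% in either direction) on HFD. HSP90B1 differed by -2.15 (SE 0.25) on ND and by -0.84 (SE 0.25) on HFD, and HSPA5 by -1.98 (SE 0.48) and -0.92 (SE 0.48), the last not called.

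Other genes of the same pathways, from written lists tested on the FPKM scale only, are read against the 62.4% of all genes that were lower in liver and the 16.4% that were higher. Of 18 further HSP70 and HSP90 cochaperones tested, 15 were lower and 0 were higher at the adjusted threshold, or at an unadjusted p under 0.05. The largest differences were -2.83 for BAG2 and -2.18 for BAG3, both of which act on HSP70. Of 27 further ER folding genes, 21 were lower and 4, among them P4HB (0.94), were higher. SERPINH1, the collagen chaperone, gave -4.65, and FKBP7, FKBP10 and FKBP14, prolyl isomerases of the ER, gave -3.40, -3.38 and -2.57. Of the heat shock factors, the transcription factors of the heat shock response, HSF3 (-1.55), HSF2 (-1.49) and HSF4 (-0.27) were lower, HSF4 with an overlap between the tissues. HSBP1 (-1.76), whose product binds these factors, was lower as well. Of the 5 genes on this list, 4 had values, and HSF1 was not among them. Of 25 genes of the unfolded protein response, the signalling that adjusts ER folding capacity, 13 were lower (52%) and 5 were higher. These counts lie near the shares of all genes and are no result about this list. CREB3L3 stood at 6.80 and CREB3L1 at -3.75. Of the 12 further mitochondrial folding genes, 5 were higher and 5 lower. The shares of these short lists were not tested against those of all genes.

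The diets were compared within each tissue, in a limma fit of its 6 samples. In liver, no member and no gene at all passed an adjusted p of 0.05 (0% of 14513 genes), and the smallest adjusted p of a member was 0.169. At an unadjusted p under 0.05, 11 of the 74 members were higher on HFD and 0 were lower, beside 9.93% and 3.93% of all genes. These counts depended on single birds. Without the liver of HFD replicate 3, or that of HFD replicate 2, they were 6 and 1. Without that of HFD replicate 1 they were 17 and 0. Without that of ND replicate 2, or that of ND replicate 3, 7 were higher. Of the members, 62 (83.8%) had a positive difference, against 61.2% of all genes, and the median was 0.23 against 0.07. The groups did not overlap for 16 members that were higher and 1 that was lower on HFD, beside 14.3% and 5.82% of all genes.

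The members with the smallest p in liver were ER and cytosolic ones, with HSP90B1 of the ER first. HSP90B1 had 122, 154 and 209 FPKM on HFD against 82.8, 42.0 and 44.4 on ND. All 3 HFD livers lay above all 3 ND livers, with means of 162 ± 44.3 and 56.4 ± 22.9 FPKM (SD, n = 3). The log2 difference was 1.54 (SE 0.30, unadjusted p = 0.001196, adjusted p = 0.169), and 1.34 without HFD replicate 3. In the fit of all 12 samples its adjusted p was 0.0225 and that of PDIA6 0.0459, where 80 genes of 15447 were called higher and 31 lower. That fit uses a shared estimate of the spread for fat and liver and takes both tissues of a bird as independent. PDIA6 had 56.9, 65.7 and 64.6 FPKM on HFD and 47.7, 42.0 and 42.5 on ND (log2 difference 0.49, SE 0.12), again without overlap. HSPA5 had 74.9, 87.1 and 350.0 FPKM on HFD and 40.4, 69.6 and 46.9 on ND. Its difference of 1.36 (SE 0.56) fell to 0.66 without HFD replicate 3, although the groups did not overlap with that bird or without it. PDIA4 gave 0.47 (SE 0.20), with values of 82.9, 109 and 114 against 86.4, 78.8 and 56.8 that overlapped, and the ER J-domain genes DNAJC18 and DNAJC1 gave 0.42 (SE 0.15) and 0.38 (SE 0.15). In all, 6 of the 16 ER members (37.5%) were higher on HFD at an unadjusted p under 0.05, beside 9.93% of all genes. The 2 shares were not tested against each other. None of the 16 had its 3 HFD values below its 3 ND values. Relative to the cytosolic members, the ER sum overlapped between the diets. It had 83.1, 75.5 and 62.9 FPKM for each 100 on HFD against 72.2, 65.2 and 61.1 on ND. HSP90B1 for each 100 of HSP90AA1 overlapped as well. HSPA5 for each 100 of HSPA8 did not, with 49.4 to 89.0 on HFD against 37.7 to 42.8 on ND.

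PDIA3 did not follow HSP90B1 in these livers. It had 192, 235 and 219 FPKM on HFD and 168, 238 and 153 on ND, and the groups overlapped. Relative to PDIA3 in the same sample, HSP90B1 stood at 63.4, 65.6 and 95.8 FPKM for each 100 of PDIA3 on HFD and at 49.2, 17.6 and 29.0 on ND.

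Outside the ER, 4 of 43 cytosolic members and 1 of 8 mitochondrial members were higher on HFD at an unadjusted p under 0.05, which is near the 9.93% of all genes and no result about these classes. Of the cytosolic ones, 3 were CCT subunits, out of 7 CCT members, a share that was not tested against that of all genes. CCT8 had 34.4, 34.2 and 44.4 FPKM on HFD against 25.6, 18.4 and 23.3 on ND (log2 difference 0.73, SE 0.17, unadjusted p = 0.003084, adjusted p = 0.2064). CCT4 had 34.1, 40.7 and 45.8 against 30.2, 29.8 and 29.8, and CCT5 22.1, 25.2 and 33.9 against 21.5, 19.4 and 18.1. The groups did not overlap for CCT2, CCT4, CCT5 and CCT8, whereas CCT3, CCT6A and CCT7 overlapped. The HFD mean was 1.04 to 1.68 times the ND mean over these 7 subunits. All 7 were raised in HFD replicate 3, to 1.15 to 1.74 times the median of the other 5 livers. TCP1, the subunit that is not a member, gave 0.31 (SE 0.18) without an overlap. HSP90AB1 had 4.31, 4.82 and 4.93 FPKM on HFD and 3.20, 2.97 and 2.62 on ND (0.53, SE 0.14, adjusted p = 0.2436). HSPA9, the mitochondrial HSP70, had 61.5, 64.4 and 77.1 FPKM on HFD and 61.9, 42.1 and 50.2 on ND, with an overlap of 1 bird, and gave 0.40 (SE 0.17).

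One liver, that of HFD replicate 3, stood apart for several HSP70 and HSP90 genes. HSP90AA1 had 79, 145 and 543 FPKM on HFD and 85, 109 and 65 on ND, and HSPA8 had 114, 176 and 393 on HFD and 107, 163 and 110 on ND. In both, HFD replicates 1 and 2 lay at or near the ND birds and HFD replicate 3 above all. That bird's level relative to the median of the other 5 livers was 6.35 for HSP90AA1, 5.03 for HSPA5, 3.47 for HSPA4L and 2.98 for HSPH1, which exchange nucleotides on HSP70, 3.46 for HSPA8 and 3.35 for DNAJA4, and the median over the members was 1.22. The small heat shock genes were not raised there, with ratios of 0.89 for HSPB1, 0.64 for HSPB8 and 0.39 for HSPB7. These ratios were picked after the values were seen. The log2 difference between the diets was 1.11 (SE 0.63) for HSP90AA1 and 0.34 without that bird, and 0.68 (SE 0.42) for HSPA8 and 0.19 without it. In the same library FKBP5, an HSP90 cochaperone induced by glucocorticoids in mammals, had 114 FPKM against 11.2 to 31.3 in the other livers, and HERPUD1, a gene of the unfolded protein response, had 134 against 13.0 to 37.1. Their part in these differences was not tested.

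**Figure D4:**
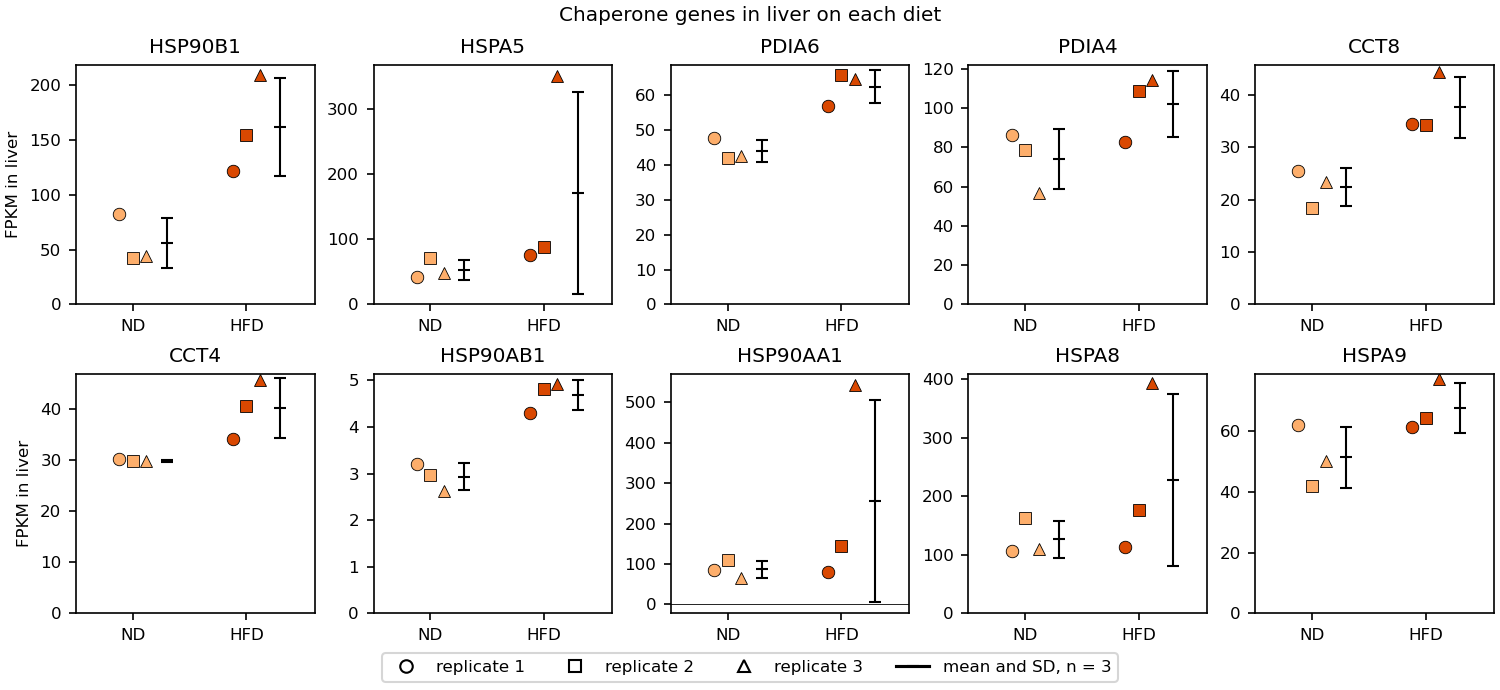
FPKM in liver of 10 members on ND and HFD, one point per bird, with the mean and SD of 3 birds, each panel on its own axis. HSP90B1, PDIA6, CCT8, CCT4 and HSP90AB1 have all 3 HFD birds above all 3 ND birds, whereas the HFD means of HSP90AA1 (256 FPKM), HSPA8 (228) and HSPA5 (171) are raised by the triangle, HFD replicate 3.

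Other folding genes of the liver were tested in the same fit and none passed the adjusted threshold. At an unadjusted p under 0.05, where 9.93% of all genes were higher and 3.93% lower, 7 of 27 further ER genes were higher on HFD and 1 was lower, with a smallest adjusted p of 0.1788 for CANX, calnexin, which holds glycoproteins for PDIA3. CANX, named here after its values were seen, had 47.5, 56.4 and 66.4 FPKM on HFD and 33.0, 32.6 and 35.6 on ND. Of 18 cochaperones, 5 were higher, and of 25 genes of the unfolded protein response, 2 were higher and 1 was lower, a share of 8% higher that is no more than that of all genes. That share does not cover HSPA5 and HSP90B1, counted as members, or HYOU1 (0.66) and CRELD2 (0.87), counted among the further ER genes. Of the further mitochondrial folding genes, those under this p were GRPEL1 (0.35) and YME1L1 (0.74). Of the further cytosolic ones, they were PFDN1 (0.37) and PPID (0.58), all higher on HFD.

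In abdominal fat, none of the 73 members tested passed an adjusted p of 0.05 for the diet, beside 1 of all 15416 genes (0.00649%). The smallest adjusted p of a member was 0.765. At an unadjusted p under 0.05, 4 were higher on HFD and 2 lower, against 2.91% and 3.40% of all genes, and without the fat of ND replicate 3 the counts were 12 and 0. The groups did not overlap for 9 that were higher and 5 that were lower, beside 5.33% and 8.13% of all genes. The median was 0.07, against -0.03 for all genes. Further folding genes were tested in the same fit. Of the 27 of the ER, those under this unadjusted p were ERP29 (0.27), FKBP10 (0.34), FKBP14 (0.39) and TXNDC12 (0.35), all higher on HFD. Among the cochaperones, AHSA1 (0.32), BAG4 (0.29) and ST13 (0.25) were higher and BAG5 (-0.50) was lower. GRPEL1 (0.38) of the further mitochondrial and PFDN5 (0.33) of the further cytosolic folding genes were higher. SESN2 (-0.55) of the unfolded protein response was lower. None of these passed the adjusted threshold.

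Markers of other cell types also differed in level between the diet groups of fat. The 13 hepatocyte markers summed to 683 to 1125 FPKM in HFD fat and 2584 to 6103 in ND fat, and all 13 had negative differences. APOA1, the apolipoprotein of HDL (-1.52), and TF, transferrin (-1.80), did not overlap between the diets, and AHSG, FGA and FETUB were at 0 in HFD replicate 2 only. The 8 leukocyte markers summed to 2450 to 2730 on HFD and 2936 to 6657 on ND, again with 8 negative differences and no marker at 0. All 8 endothelial markers had negative differences, that of ERG only -0.01, and all 11 skeletal muscle markers tested had positive ones. The smooth muscle and erythrocyte markers went in both directions, such as CNN1 (0.94) and RGS5 (-0.55), and HBAD (0.73) and SLC4A1 (-0.24). None of these markers passed the adjusted threshold, and their part in the diet differences of the chaperones in fat was not tested.

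HSPB8 (gene ID 416988) had the smallest p. Its values of 54.3, 48.3 and 54.9 FPKM on HFD lay above those of 33.9, 27.9 and 38.4 on ND, and the difference was 0.65 (SE 0.13, unadjusted p = 0.002317, adjusted p = 0.7649). The library of ND replicate 2, in which ALB was high, had the lowest value, and without it the difference was 0.53. HSPB8 is also abundant in muscle. The 13 skeletal muscle markers in the files summed to 214 to 699 FPKM on HFD, with the highest value in replicate 1, and to 135 to 274 on ND, and without HFD replicate 1 the HSPB8 difference was 0.62. ACTA1, the actin of skeletal muscle, had 248, 57.8 and 50.04 FPKM on HFD and 15.2, 13.1 and 49.7 on ND, so that it did not overlap either (2.00, SE 0.74, limma unadjusted p = 0.03256, adjusted p = 0.7649). The part of muscle RNA in the HSPB8 difference was not tested. DNAJB11, a J-domain partner of HSPA5, had 33.7, 34.5 and 35.5 FPKM on HFD and 26.5, 26.3 and 27.9 on ND (0.35, SE 0.08). DNAJC15 of the mitochondrial inner membrane had 21.6, 19.8 and 23.5 against 15.2, 16.2 and 16.7 (0.41, SE 0.10). None of these 3 genes overlapped between the diets.

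CCT7 (0.24, SE 0.09), CCT4 (0.22, SE 0.09) and HSP90B1 (0.23, SE 0.10) were among the 8 smallest p-values with positive differences, and HSPA12A (-0.37, SE 0.14) and DNAJC3 (-0.21, SE 0.08), an inhibitor of the kinase PERK, with negative ones. HSP90B1 had 275, 291 and 283 FPKM on HFD against 227, 236 and 261 on ND, so the fat groups did not overlap either, but the difference was a small part of that in liver. All 7 CCT members had positive differences, from 0.09 to 0.24, and all 8 mitochondrial members from 0.02 to 0.41, beside a median of -0.03 over all genes. Without the fat of ND replicate 1, HSPA9 (-0.0448), DNAJA3 (-0.0073) and DNAJC19 (-0.0147) were negative. The further CCT subunit TCP1 gave 0.25 (SE 0.12) with an overlap. The fat library of HFD replicate 3 was the highest of the 6 for 29 of the 73 members (39.7%), against 14.7% of all genes. That of ND replicate 1 was the lowest for 7 of the 8 mitochondrial members, against 15.9% of all genes.

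HSPA2 varied within the ND group of fat. It had 564, 539 and 1214 FPKM on ND and 455, 583 and 535 on HFD, with ND replicate 3 at 2.25 times the median of the other 5. In that bird DNAJA4, a J-domain partner of HSP70, had 92.8 FPKM against 31.6 to 49.2 in the others, and DNAJB1 had 60.9 against 31.2 to 51.0. Outside the members, BAG3 had 64.1 against 21.4 to 47.6, and HSP25, a small heat shock protein that RefSeq lists as HSPB9, had 501 against 73.3 to 160. By diet, HSP25 had 73.3, 141 and 80.5 FPKM in HFD fat and 160, 147 and 501 in ND fat, without overlap. Among all genes, 8.13% were lower in HFD fat without overlap. These genes were picked after their values were seen. HSP90B1, at 261 FPKM, and HSPA5, at 250.35, did not stand apart in this bird, whose ER to cytosol ratio of 28.6 was the lowest of the 12 samples.

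**Figure D5:**
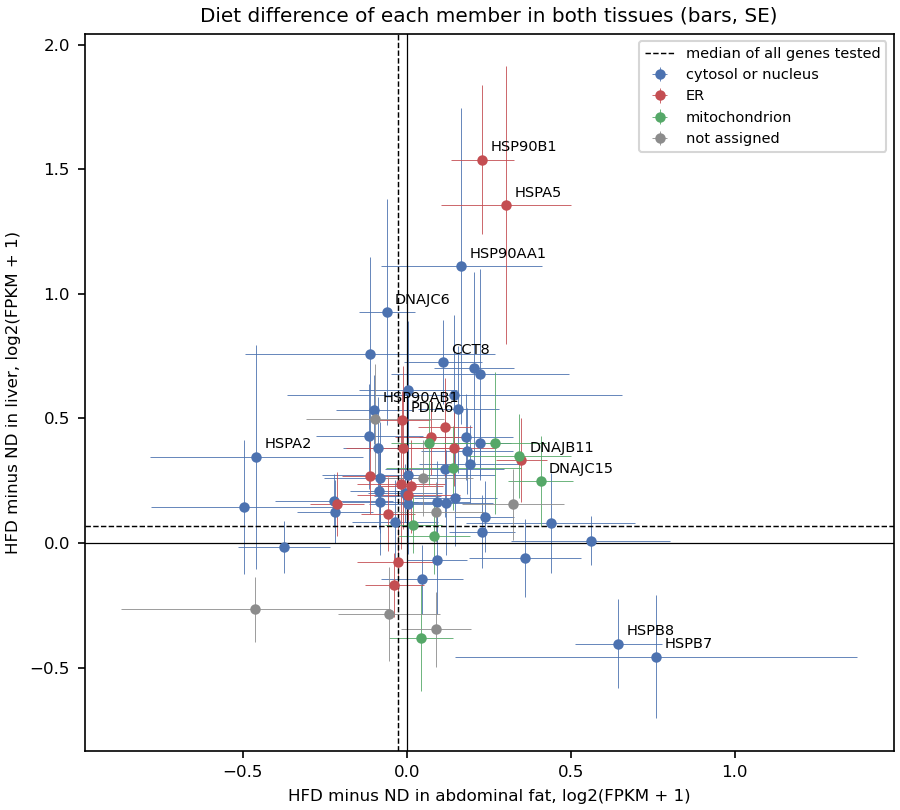
Difference between HFD and ND on the log2(FPKM + 1) scale in abdominal fat (horizontal) and liver (vertical) for the 73 members tested in both, with standard errors and dashed lines at the medians of all genes, -0.03 and 0.07. HSP90B1, at 0.23 and 1.54, and HSPA5, at 0.30 and 1.36, lie highest, and HSPB8 lies at 0.65 in fat and -0.40 in liver.

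An interaction term in the fit of all 12 samples asked whether liver and fat differed in their response to the diet. No member passed the adjusted threshold, and 1 gene of all did (0.00647%). At an unadjusted p under 0.05, 6 members had a larger diet difference in liver and 2 a smaller one, beside 9.21% and 3.39% of all genes. HSPB8 had the smallest p, since its mean on HFD was above that on ND in fat (52.5 ± 3.66 against 33.4 ± 5.28 FPKM) and below it in liver (1.42 ± 0.50 against 2.16 ± 0.25, SD, n = 3), where the groups overlapped (interaction -1.05, SE 0.23, unadjusted p = 0.000772, adjusted p = 0.1872). HSP90AB1 gave 0.63 (SE 0.16, adjusted p = 0.2487), PDIA6 0.51 (SE 0.13, adjusted p = 0.2734), HSP90B1 1.31 (SE 0.35, adjusted p = 0.278) and CCT8 0.62 (SE 0.21, adjusted p = 0.3365). The 95% interval of HSP90B1 ran from 0.54 to 2.08 without adjustment for the number of genes tested.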

How the data were processed

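RNA of 12 samples (liver and abdominal fat, HFD and ND, 3 each) was sequenced on a BGI platform. The authors deposited 1 FPKM value per gene and sample with 2 decimals, and per the submitters' processing notes HISAT2 2.0.4, Bowtie2 2.2.5 and RSEM 1.2.12 were used. The genome build is not given in the sources used here, and no read counts were used, so no count model could be fitted. Samples were grouped by the labelled diet and tissue. The labels number the samples of a group as repeats, which by the methods are separate birds.

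Values were analysed as log2(FPKM + 1) with limma 3.58.1 (R 4.3.3, eBayes with a mean-variance trend, two-sided, Benjamini-Hochberg adjustment over all genes tested), on those genes that averaged 0.1 FPKM or more over the samples of the fit. A log2 difference on this scale understates the change of low genes. The diets were compared in 6 samples per tissue, and the tissues and the interaction in all 12. The fit was tested on simulated data before use. An exact permutation test of 3 against 3 cannot go below 0.1 and was not used.

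Members, their compartments and the lists of other genes were chosen with earlier results of these data known. Named genes were the 6 highest members of each compartment, the 6 largest differences per direction between the tissues, the 8 smallest p-values per diet comparison, the 5 smallest of the interaction, the HSP70, HSP90 and CCT families, and at most 4 called genes per other list. Others are stated to be chosen after their values were seen, or are the remaining members of a class. TCP1 and P4HB were named as genes of these families under other symbols, and some further folding genes in fat and liver by an unadjusted p under 0.05. A symbol with several rows was left out of the named genes. By gene ID, 73 of the 77 members matched the RefSeq gene table of GRCg7b, which was used for names and neighbours only. Alternatives were another pseudocount (0.1), filters (mean of at least 1 FPKM, or none), quantile normalization, a replicate block, leaving out each replicate, one fit of all 12 samples and the threshold of the study's methods (log2 0.5, p 0.001), and, added after seeing the data, TPM scaling and leaving out libraries that stand apart.

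Per the methods fat and liver came from the same 6 birds, but no source says that equal numbers mark a bird, and replicate numbers were not treated as pairs. Residuals of 1 bird's tissues may therefore be correlated in the fits of 12 samples. Same-numbered HFD and ND samples had correlations of -0.13 to 0.06 of their deviations from the group means, and same-numbered fat and liver samples 0.07 to 0.23.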

Additional observations from a re-analysis of the deposited data

Results flagged for a closer look

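DNAJC6, the auxilin gene that acts in clathrin uncoating, had its 3 fat samples on HFD (0.21, 0.25 and 0.23 FPKM) below its 3 fat samples on ND (0.28, 0.31 and 0.26), and its 3 livers on HFD (4.92, 5.17 and 4.82) above its 3 livers on ND (2.80, 0.44 and 4.66). The diet difference in liver minus that in fat was 0.99 on the log2(FPKM + 1) scale (unadjusted p = 0.0826, adjusted p = 0.446 in the limma fit of all 12 samples), so the interaction missed the threshold. The fat values lie within 0.10 FPKM of each other, and the liver difference rests largely on ND replicate 2.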

How the results depend on the processing

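The calls between the tissues depended on the scaling more than on single libraries. Members called higher and lower in liver were 23 and 33 with quantile normalization and 6 with TPM scaling for those higher, against 12 and 50, and 10 to 12 and 50 to 51 when 1 library was left out. Within the diets, quantile normalization gave 21 members higher on ND, and 20 higher and 26 lower on HFD. No member was called for the diet in either tissue or for the interaction in any setting that kept the tissues apart or left out a library, and 2 were called higher in liver on HFD in one fit of all 12 samples.

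Counts at an unadjusted p under 0.05 were less stable. For the diet in fat, 7 members were higher without a filter, and 1 was lower with a mean of at least 1 FPKM, with quantile normalization, with the replicate block and with all 12 samples. Leaving out 1 library gave 3 to 12 higher and 0 to 2 lower. For the diet in liver, 18 were higher and 2 lower with all 12 samples, 1 lower without a filter and 3 lower with quantile normalization, and leaving out 1 library gave 6 to 17 higher and 0 to 3 lower. For the interaction, 1 was smaller in liver with TPM scaling, and leaving out 1 library gave 4 to 14 larger and 1 to 3 smaller. The cause was not tested.

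Small differences that missed the threshold changed sign. In fat, without both ND replicates 1 and 2, these were PDIA3 (-0.112), DNAJA3 (-0.0324), HSP90AA1 (-0.246), DNAJC19 (-0.0976), HSPA9 (-0.0534) and HSPA8 (-0.256), with TPM scaling PDIA3 (-0.0256) and DNAJA3 (-0.0181), and with quantile normalization PDIA3 (-0.0732). Leaving out 1 library gave -0.0348 to 0.0765 for PDIA3, -0.0204 to 0.0461 for DNAJA3, -0.0194 to 0.373 for HSP90AA1, -0.0566 to 0.0189 for PDIA6, -0.0147 to 0.307 for DNAJC19 and -0.0448 to 0.131 for HSPA9. In liver CCT3 was -0.0107 with quantile normalization and -0.0716 to 0.136 with 1 library left out, HSPA2 -0.0079 to 0.744 and DNAJB2 -0.213 to 0.0379.

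The replicate block moved no other count by over 1.5 times. Taking same-numbered samples of a diet as 1 bird, 12 members were higher and 50 lower in liver and none passed for the interaction. Of the 6 fat samples, 5 correlated best with the liver sample of their own number, a hint from the data only. Without read counts, the depth behind a low FPKM value is unknown.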
